A study of Mus musculus with 8 samples.

Results

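Undifferentiated spermatogonia are the pool of male germ cells that holds the spermatogonial stem cells, and a small set of regulators marks this state. The 9 genes described here were chosen by name as such identity factors: Nanos2, Pax7, Eomes, Id4, Zbtb16, Pou5f1, Lin28a, Foxo1 and Taf4b. They are 9 of the 55421 genes in the deposited table of read counts, each name matched 1 row, and all 9 passed the filter on low counts that left 20588 genes for testing. That filter needs enough reads in only 2 libraries, so passing it says nothing of a gene's level in the other groups.

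The libraries came from primary cultures of mouse spermatogonia (SSC culture) on a C57BL/6XDBA/2 F1 hybrid background, derived from the testes of 6-day-old pups and grown on irradiated mouse embryonic fibroblast feeders. Per the labels the culture medium held GDNF and bFGF, the growth factors that keep these cells undifferentiated, at 10 ng/ml each (the study's recipe gives more GDNF than this). Stra8-deficient cultures (Stra8KO) and cultures labelled Spo11KO were each given vehicle (Veh) or NRRA, a nutrient-restricted medium combined with retinoic acid, for 48 h. By the study's methods NRRA medium was mostly a balanced salt solution with a small part of culture medium, so both growth factors were diluted in it along with the nutrients, and the parts of these changes cannot be told apart. Per the labels every culture carried 1 of the 2 knockouts, wild-type cultures were not analysed here, and each of the 4 groups had 2 libraries of poly(A) RNA. STRA8 is the retinoic acid-induced regulator of meiotic entry and SPO11 the enzyme that makes meiotic DNA breaks, so the design asks how the program of undifferentiated cells responds to NRRA with and without STRA8. By the study's methods sequencing replicates were independent and biological, and experimental replicates used different mice, tissues or cells. Which of these applied to the 2 libraries of each group is not given, and the p-values measure only the spread between these libraries.

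Library totals ranged from 20960794 to 27038868 counts. Stra8 had 2 and 0 counts in the Stra8KO Veh libraries and 169 and 170 after NRRA, against 28 and 12 in Veh and 12604 and 16191 after NRRA in the libraries labelled Spo11KO. Spo11 showed no loss with the label Spo11KO, with 72 and 75 counts in Veh and 148 and 127 after NRRA, against 32, 31, 68 and 66 in Stra8KO. Gene-level counts therefore do not check the Spo11KO label, and every direction below that involves those libraries rests on it. Transcripts of all 8 pan-germ genes were present in every library, such as Ddx4 with 1990 to 6868 counts, and feeder transcripts were abundant, such as Col1a1 with 51775 to 248659 counts.

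The 9 factors act at different levels of the stem cell program. NANOS2 is an RNA-binding protein that holds back differentiation and male meiosis, while PAX7, EOMES and ID4 mark small and overlapping stem cell-enriched fractions. ZBTB16 (PLZF), FOXO1 and TAF4B are nuclear regulators needed for self-renewal or for keeping the stem cell pool, and POU5F1 (OCT4) and LIN28A are shared with pluripotent cells. Retinoic acid drives these cells towards differentiation through receptors that bind DNA, and differentiating cells switch on the receptor kinase KIT.

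Promoter sequence from RefSeq (GRCm38.p6) was examined for 7 of the 9 factors, in 8 windows of 250 bases before an annotated start. Promoters of Zbtb16 and Taf4b were not examined, so nothing is said of their motifs. Each window was searched on both strands for AGGTCA and GGGTCA, half-sites of retinoic acid receptors whose last letters are the same, for CNCCTCAG, the motif linked to STRA8, and for GTAAACA, the motif of FOXO and other forkhead proteins. The sequences below are those of Nanos2 and Eomes, the factors with the largest falls after NRRA, and of Pou5f1 and Lin28a, which held the motifs. They are printed 5′ to 3′ on the gene's strand, with motif matches in capitals. A window was cut where a GENCODE transcript of the gene starts within it, and the Eomes window ended before such a start.
Nanos2, chr7:18987274-18987399, plus strand: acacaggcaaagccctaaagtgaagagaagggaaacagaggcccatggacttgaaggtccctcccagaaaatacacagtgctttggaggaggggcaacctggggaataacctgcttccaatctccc
Eomes, chr9:118477939-118478188, plus strand: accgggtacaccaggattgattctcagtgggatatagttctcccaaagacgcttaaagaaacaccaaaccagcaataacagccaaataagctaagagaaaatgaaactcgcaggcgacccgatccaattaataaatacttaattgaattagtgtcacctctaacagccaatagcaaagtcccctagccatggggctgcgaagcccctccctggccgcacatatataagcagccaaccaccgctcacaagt
Pou5f1, chr17:35505782-35506017, plus strand: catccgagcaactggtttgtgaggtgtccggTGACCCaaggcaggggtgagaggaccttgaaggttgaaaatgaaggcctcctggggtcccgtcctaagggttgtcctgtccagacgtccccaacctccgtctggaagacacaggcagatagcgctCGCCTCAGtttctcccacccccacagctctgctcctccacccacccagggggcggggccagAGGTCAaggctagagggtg
Lin28a, chr4:134018842-134019066, minus strand: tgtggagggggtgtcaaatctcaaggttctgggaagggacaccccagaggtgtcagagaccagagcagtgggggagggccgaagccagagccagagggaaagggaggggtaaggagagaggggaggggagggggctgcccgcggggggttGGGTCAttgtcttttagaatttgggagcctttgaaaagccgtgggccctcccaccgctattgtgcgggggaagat
The printed Pou5f1 window held 1 match of AGGTCA, 1 of GGGTCA on the other strand (printed as TGACCC) and 1 of CNCCTCAG. Another Pou5f1 window, chr17:35508557-35508806, held no match. It lay within the GENCODE span of the gene, as did the Pax7 window, chr4:139832969-139833218. The Lin28a window held GGGTCA, and the searched letters were in none of the windows of Nanos2, Pax7, Eomes, Id4 and Foxo1. Of all 32851 RefSeq promoters with windows of this length, 14% held AGGTCA, 11.6% GGGTCA, 6.42% CNCCTCAG and 3.17% GTAAACA. A match is a description of the letters and not evidence of binding.

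After NRRA, Pax7, Id4, Zbtb16 and Pou5f1 were called in opposite directions in the 2 genotypes, while Eomes and Taf4b fell and Foxo1 rose in both. In Stra8KO, 6 of the 9 rose, Eomes and Taf4b fell, and Nanos2 did not pass the test. With scaling to germ cell genes 4 were called higher and 2 lower there, beside 2596 and 8186 of the 20588 tested genes. Without Stra8KO Veh replicate 2 the factors called there were 5, all higher. Among the cultures labelled Spo11KO, 7 of the 9 fell, Foxo1 rose, and Lin28a did not pass the test. The median log2 change of the 9 was 0.33 in Stra8KO, against -1.27 with the label Spo11KO, beside 0.01 over all tested genes in each. NRRA changed much of the transcriptome, with 41.9% of tested genes called in Stra8KO (21.6% higher, 20.2% lower) and 49.9% in the cultures labelled Spo11KO (24.5% higher, 25.5% lower), against which these counts should be read. With a fold change of at least 2 also required, 2 of the 9 were called in Stra8KO, both higher, and 6 with the label Spo11KO, all lower, beside 10.5% and 12.3% of tested genes. In bulk libraries such as these, fewer cells of a type and less RNA per cell cannot be told apart.

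**Figure D1:**
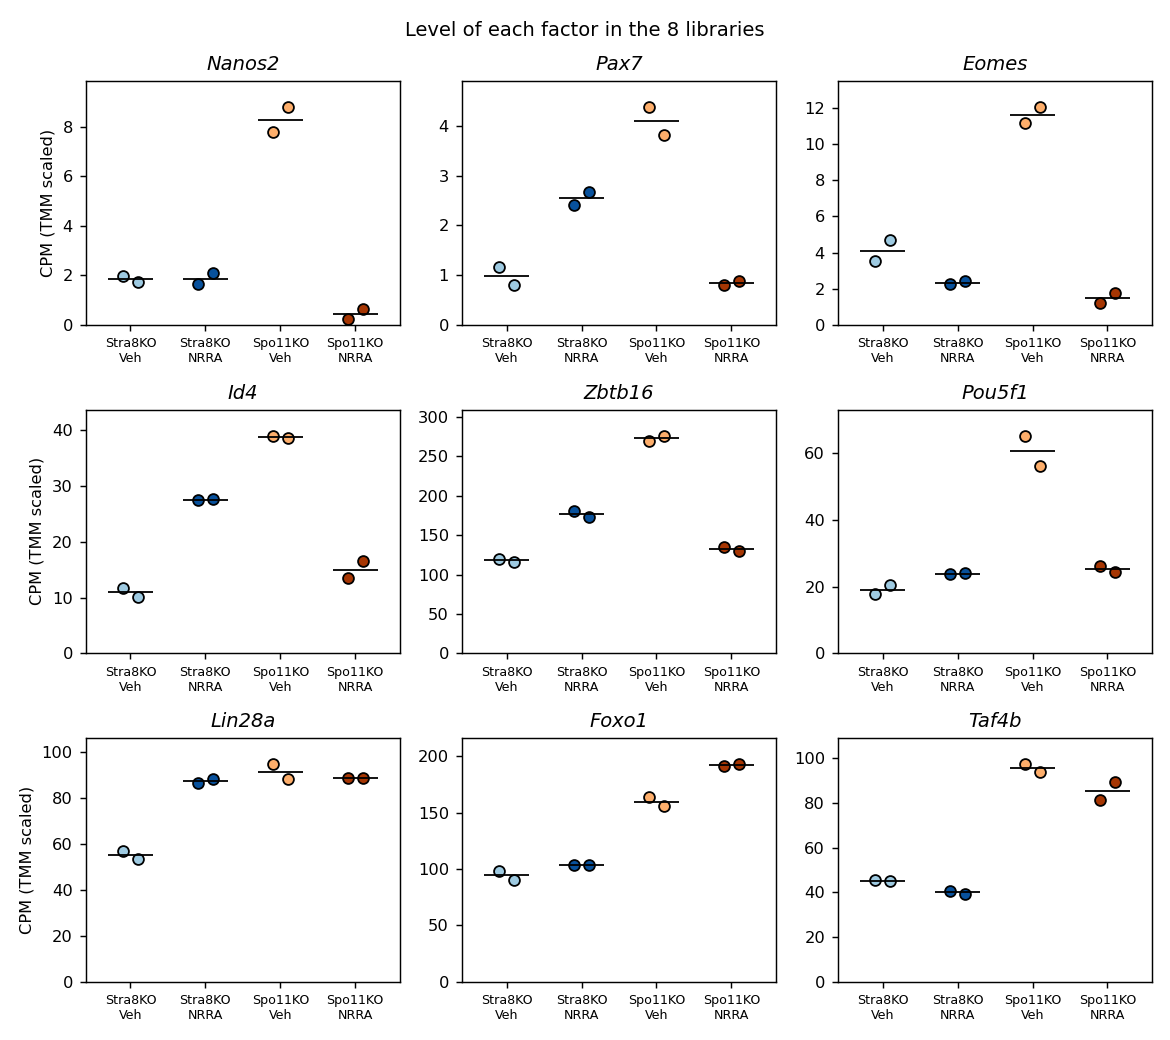
Level of each factor in the 8 libraries, in counts scaled to a common library size (CPM) after TMM scaling on a linear axis from 0 that differs between panels; points are single libraries and the bar is the mean of the 2. The libraries labelled Spo11KO Veh are the highest for 7 of the 9 factors, all but Lin28a, where they overlap other groups, and Foxo1.

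Nanos2 (ENSMUSG00000051965, GRCm38 chr7:18987400-18988962) showed the steepest response. Stra8KO libraries had 1.97 and 1.71 CPM in Veh and 1.64 and 2.08 CPM after NRRA, while those labelled Spo11KO went from 7.79 and 8.79 CPM to 0.232 and 0.648 CPM. The groups overlapped in Stra8KO and were far apart in the cultures labelled Spo11KO, where the NRRA libraries held only 6 and 19 reads. The fall there was 18.1-fold (log2 -4.18 ± 0.26 SE, edgeR adjusted p = 3.19e-19). Its size rested on which of those thin libraries was used, at log2 -5.15 from NRRA replicate 1 alone and -3.67 from NRRA replicate 2 alone, with the lone library taken to vary like the others. In Stra8KO the log2 change was 0.01 ± 0.27 (edgeR adjusted p = 0.978), with a 95% interval from -0.53 to 0.56 that leaves out a fall of the size seen in the other genotype. The difference between the responses was 4.19 ± 0.40 on the log2 scale (edgeR adjusted p = 4.68e-12), and 3.67 and 5.15 without Spo11KO NRRA replicates 1 and 2. An antisense gene, Gm45058, overlaps Nanos2 and was read too, with 31 and 21 counts in vehicle and 23 and 27 after NRRA in Stra8KO, and 112 and 138 in vehicle and 3 and 13 after NRRA with the label Spo11KO. Whether strand was used in counting is not given in the sources used here, so reads of Nanos2 and Gm45058 cannot be told apart.

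Pax7 (ENSMUSG00000028736, chr4:139737062-139833528), a paired-box factor of rare stem cells in the testis and of muscle satellite cells, moved in opposite directions. It rose in Stra8KO from 1.16 and 0.806 CPM to 2.41 and 2.68 CPM, and fell in the cultures labelled Spo11KO from 4.38 and 3.83 CPM to 0.810 and 0.887 CPM. No Veh and NRRA library overlapped in either genotype. The rise was 2.56-fold (log2 1.35 ± 0.29 SE, edgeR adjusted p = 9.66e-05) and the fall 4.80-fold (log2 -2.26 ± 0.25, edgeR adjusted p = 9.62e-11). The responses differed by 3.62 ± 0.38 on the log2 scale (edgeR adjusted p = 8.56e-11). Of the muscle regulators, Myf5 had 0 counts in every library, Myod1 0 to 3, Myf6 0 to 2 and Myog 3 to 22. Cdh15, an adhesion protein of satellite cells, was read at 82 and 89 counts in Veh and 203 and 231 after NRRA in Stra8KO, where it was called higher, and at 315 and 292 in Veh and 397 and 431 after NRRA with the label Spo11KO, where it did not pass the test. The counts of Musk were 0 to 9, of Acta1 10 to 98, of Des 83 to 159, of Chrna1 8 to 495 and of Myh3 136 to 552. Of the 10 muscle genes listed, 6 could be tested, of which 1 rose and 2 fell after NRRA in Stra8KO. With the label Spo11KO 1 rose and 3 fell. The summed level of all 10 was 27.5 to 45.8 CPM over the 8 libraries. Their part in the level of Pax7 was not tested.

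Id4 (ENSMUSG00000021379, chr13:48261228-48266026), an inhibitor of bHLH transcription factors that marks the stem cell-enriched fraction, followed the same course at a higher level. Stra8KO libraries had 11.7 and 10.2 CPM in Veh and 27.5 and 27.6 CPM after NRRA, a rise of 2.51-fold (log2 1.33 ± 0.10 SE, edgeR adjusted p = 1.03e-16). In the cultures labelled Spo11KO it went from 39.1 and 38.7 CPM to 13.5 and 16.5 CPM, a fall of 2.59-fold (log2 -1.37 ± 0.08, edgeR adjusted p = 1.20e-19). The groups did not overlap in either genotype, and the responses differed by 2.70 ± 0.13 on the log2 scale (edgeR adjusted p = 5.14e-23).

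Zbtb16 (ENSMUSG00000066687, chr9:48654297-48836222), the PLZF repressor needed for self-renewal, changed less but with small errors. It rose in Stra8KO from 119 and 117 CPM to 181 and 173 CPM (1.50-fold, log2 0.59 ± 0.04 SE, edgeR adjusted p = 1.41e-16). With the label Spo11KO it fell from 269.7 and 276 CPM to 135 and 130.2 CPM (2.06-fold, log2 -1.04 ± 0.04, edgeR adjusted p = 3.68e-27). Again no Veh and NRRA library overlapped within a genotype, and the responses differed by 1.63 ± 0.06 on the log2 scale (edgeR adjusted p = 2.21e-27).

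Eomes (ENSMUSG00000032446, chr9:118478212-118486132), a T-box factor of a stem cell fraction, was the factor of the stem cell group that was lower after NRRA in both genotypes. Its level in Stra8KO was 3.53 and 4.68 CPM in Veh and 2.27 and 2.40 CPM after NRRA, and in the cultures labelled Spo11KO 11.2 and 12.1 CPM in Veh and 1.20 and 1.74 CPM after NRRA. The groups did not overlap. The fall was 7.82-fold with the label Spo11KO (log2 -2.97 ± 0.18 SE, edgeR adjusted p = 1.30e-19) and 1.75-fold in Stra8KO (log2 -0.80 ± 0.21, edgeR adjusted p = 0.00139). The Stra8KO call was lost without Veh replicate 2, at log2 -0.60 (edgeR adjusted p = 0.0647). The responses differed by 2.16 ± 0.29 on the log2 scale (edgeR adjusted p = 5.16e-08). EOMES also marks T and NK lymphocytes, whose genes Ncr1 and Nkg7 had at most 4 counts in any library, and Cd3e, the 1 of 6 lymphocyte genes that could be tested, had 21 to 66 counts and passed no test.

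Pou5f1 (ENSMUSG00000024406, chr17:35506018-35510772) and Lin28a (ENSMUSG00000050966, chr4:134003330-134018841) are a POU transcription factor and an RNA-binding protein that blocks let-7 processing. Pou5f1 was at 17.8 and 20.4 CPM in Stra8KO Veh and at 23.8 and 24.0 CPM after NRRA, and it dropped from 65.3 and 56.3 CPM to 26.1 and 24.3 CPM in the cultures labelled Spo11KO. The fall was 2.42-fold (log2 -1.27 ± 0.07 SE, edgeR adjusted p = 7.05e-21). The rise in Stra8KO was 1.26-fold (log2 0.33 ± 0.09, edgeR adjusted p = 0.00186), and its call was lost without Veh replicate 1, at log2 0.23 (edgeR adjusted p = 0.106), and with scaling to germ cell genes, at log2 0.12 (edgeR adjusted p = 0.298). The responses of Pou5f1 differed by 1.60 ± 0.11 on the log2 scale (edgeR adjusted p = 2.26e-16). An antisense gene, Gm19553, holds 38.0% as many counts as Pou5f1, from 152 to 632 a library, and reads of the pair cannot be told apart for the same reason as above.

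Lin28a rose in Stra8KO from 56.8 and 53.1 CPM to 86.5 and 88.2 CPM (1.59-fold, log2 0.67 ± 0.05 SE, edgeR adjusted p = 3.87e-15). In the cultures labelled Spo11KO it was at 94.6 and 88.1 CPM in Veh and at 88.3 and 88.6 CPM after NRRA. These groups overlapped, and the log2 change was -0.05 ± 0.05 (edgeR adjusted p = 0.469) with a 95% interval from -0.15 to 0.05, but with scaling to germ cell genes it was -0.19 and called (edgeR adjusted p = 0.00165). The responses of Lin28a differed by 0.71 ± 0.07 on the log2 scale (edgeR adjusted p = 3.49e-11). Of the pluripotency genes, Nanog had 0 to 12 counts, Fgf4 0 to 2 and Tdgf1 1 to 8. The 3 of 6 listed pluripotency genes that could be tested were all higher after NRRA in Stra8KO, whereas 1 rose and 1 fell with the label Spo11KO. The summed level of all 6 went from 86.1 and 89.4 CPM to 149 and 153 CPM in Stra8KO. With the label Spo11KO it went from 69.0 and 71.5 CPM to 102 and 103 CPM. Most of this sum was Klf4, whose mean went from 80.7 to 127 CPM in Stra8KO and from 60.6 to 95.7 CPM with the label Spo11KO. With that label the mean of Sox2 went from 2.72 to 0.470 CPM and that of Esrrb from 6.63 to 6.08 CPM. In Stra8KO these means went from 4.34 to 14.4 CPM and from 2.35 to 8.68 CPM. The part of the pluripotency genes in the levels of Pou5f1 and Lin28a was not tested.

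Foxo1 (ENSMUSG00000044167, chr3:52268336-52353221) and Taf4b (ENSMUSG00000054321, chr18:14783245-14900359) encode a forkhead factor that acts downstream of PI3K signalling and a germ cell-enriched subunit of the TFIID complex, and they changed little. Foxo1 had 98.4 and 90.1 CPM in vehicle and 104 CPM in both NRRA libraries of Stra8KO, and went from 164 and 156 CPM to 191 and 193 CPM with the label Spo11KO. Taf4b went from 45.3 and 45.0 CPM to 40.5 and 39.5 CPM in Stra8KO, and from 97.4 and 94.1 CPM to 81.3 and 89.5 CPM with the label Spo11KO. Within each genotype the Veh and NRRA libraries did not overlap for either gene. The Foxo1 change was 1.20-fold with the label Spo11KO (log2 0.27 ± 0.04 SE, edgeR adjusted p = 6.56e-07) and 1.10-fold in Stra8KO (log2 0.14 ± 0.05, edgeR adjusted p = 0.0150). Taf4b changed by log2 -0.16 ± 0.05 (edgeR adjusted p = 0.00622) and -0.18 ± 0.06 (edgeR adjusted p = 0.0191). An antisense gene, Gm20402, overlaps Foxo1 at 14.7% of its counts, and reads of the pair cannot be told apart, as for Nanos2. It had 344 and 274 counts in Veh and 325 and 368 after NRRA in Stra8KO. With the label Spo11KO it had 594 and 442 in Veh and 765 and 792 after NRRA. Smaller antisense overlaps include those of Id4 (Gm49291, 9.3%), Eomes (Gm33460, 7.48%) and Lin28a (Gm13061, 6.21%). With scaling to germ cell genes the Foxo1 value in Stra8KO turned to -0.07 (edgeR adjusted p = 0.240), and leaving out single libraries ended the smaller calls. The Foxo1 change in Stra8KO was 0.08 when Veh replicate 2 was left out and 0.14 when either NRRA replicate was left out (edgeR adjusted p = 0.337, 0.0544 and 0.0620). The Taf4b change in Stra8KO was -0.17 without Veh replicate 1, -0.18 without Veh replicate 2 and -0.16 without NRRA replicate 2 (edgeR adjusted p = 0.0988, 0.0674 and 0.113). With the label Spo11KO it was -0.14 without Veh replicate 1 and -0.11 without NRRA replicate 1 (edgeR adjusted p = 0.0637 and 0.157).

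Foxo1 and Taf4b were also the factors whose responses did not pass the test of a difference between genotypes. For Foxo1 that difference was -0.13 ± 0.06 on the log2 scale (95% interval -0.26 to 0.001, edgeR adjusted p = 0.151), and for Taf4b it was -0.01 ± 0.08 (95% interval -0.17 to 0.15, edgeR adjusted p = 0.940). The Foxo1 result depended on the processing. Its difference was called with total counts, scaling to germ cell genes and no filter, at -0.22, -0.19 and -0.19 (edgeR adjusted p = 0.00571, 0.0367 and 0.0342). The other 7 of the 9 factors had a higher NRRA response in Stra8KO than with the label Spo11KO. This difference was called for 25.1% of tested genes, with 14.8% higher and 10.3% lower in Stra8KO. At least 2-fold differences were called for 6 of the 9, all but Lin28a of the 7, beside 5.71% of tested genes. The median difference of the 9 was 1.63, beside 0.01 over all genes.

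**Figure D2:**
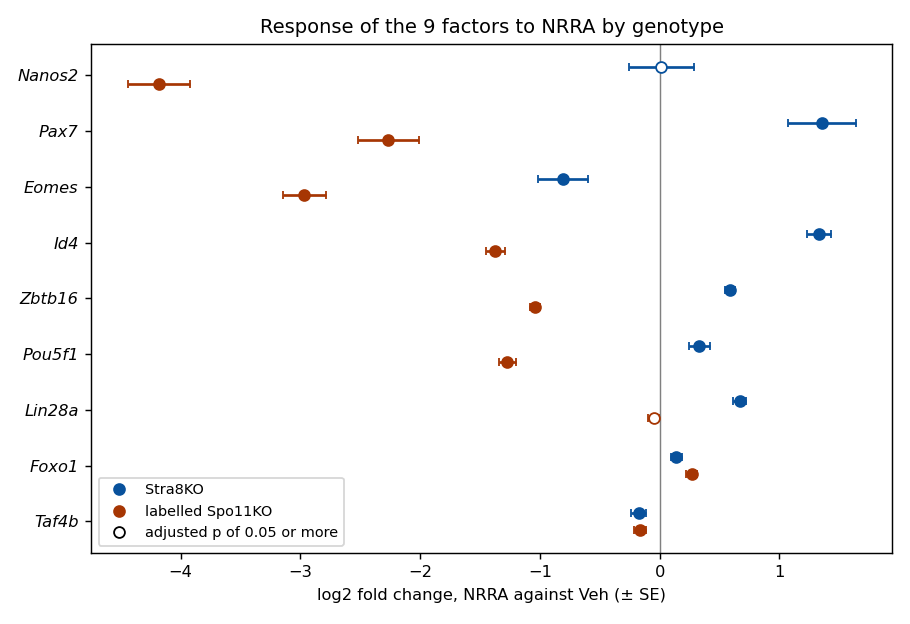
Fitted log2 fold change of each factor after NRRA against Veh with its standard error, by genotype label; open points did not pass an adjusted p of 0.05. Pax7, Id4, Zbtb16 and Pou5f1 lie on opposite sides of 0 in the genotypes, Nanos2 lies near 0 and at -4.18, and the points of Taf4b nearly coincide.

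In vehicle, all 9 factors were lower in Stra8KO than in the cultures labelled Spo11KO, in a comparison that called 62.3% of tested genes, with 31.6% higher and 30.7% lower. Nanos2 was 4.48-fold lower (log2 -2.16 ± 0.21 SE, edgeR adjusted p = 1.08e-12), Pax7 4.12-fold (log2 -2.04 ± 0.26, edgeR adjusted p = 2.18e-09) and Id4 3.55-fold (log2 -1.83 ± 0.09, edgeR adjusted p = 5.79e-23). The log2 differences of Pou5f1, Eomes, Zbtb16, Taf4b, Foxo1 and Lin28a were -1.68, -1.51, -1.21, -1.08, -0.76 and -0.73. For 7 of the 9, all but Lin28a and Foxo1, the gap exceeded 2-fold, beside 16.2% of tested genes called at that size. Germ cell transcripts as a whole were lower too in these Stra8KO libraries. Each of the 8 pan-germ genes passed the test as lower, at a median log2 difference of -1.02 and a summed level of 696 to 701 CPM against 1437 to 1482 CPM. All 16 fibroblast genes of the feeder layer were higher, with a summed level of 25953 to 26567 CPM against 13652 to 13739 CPM.

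Scaled to the geometric mean of the 8 pan-germ genes, the picture in vehicle split. Nanos2 (log2 -1.14), Pax7 (-1.02), Id4 (-0.80), Pou5f1 (-0.65), Eomes (-0.49) and Zbtb16 (-0.19) were still called lower in Stra8KO. On the same scale Lin28a (0.29) and Foxo1 (0.26) turned higher, and Taf4b (-0.06, edgeR adjusted p = 0.345) was not called. This scaling moved the median of all genes by 1.02 on the log2 scale, so all 9 factors, at 0.29 or below, lay below the median gene under it.

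After NRRA the order between the genotypes had changed, in a comparison with 64% of tested genes called, 35% higher and 28.9% lower. Nanos2 was 4.09-fold higher in Stra8KO (log2 2.03 ± 0.34 SE, edgeR adjusted p = 1.08e-06), and 1.51 and 2.98 on the log2 scale without Spo11KO NRRA replicates 1 and 2. Pax7 was 2.98-fold higher (log2 1.58 ± 0.28, edgeR adjusted p = 2.40e-06), Id4 1.83-fold (log2 0.87 ± 0.09, edgeR adjusted p = 2.03e-12) and Zbtb16 1.33-fold (log2 0.42 ± 0.04, edgeR adjusted p = 2.11e-12). The Eomes difference of 0.65 ± 0.24 (edgeR adjusted p = 0.0165) was not stable, since it was 0.61 without Stra8KO NRRA replicate 2 and 0.42 without Spo11KO NRRA replicate 1 (edgeR adjusted p = 0.0831 and 0.195). Pou5f1 and Lin28a did not pass the test, with log2 differences of -0.07 (95% interval -0.24 to 0.09) and -0.02 (-0.12 to 0.08). Foxo1 was 1.85-fold lower (log2 -0.89 ± 0.04, edgeR adjusted p = 4.98e-23) and Taf4b 2.14-fold lower (log2 -1.10 ± 0.06, edgeR adjusted p = 1.70e-22). With total counts in place of TMM scaling, Pou5f1 and Lin28a were called lower in Stra8KO, at -0.28 and -0.23 (edgeR adjusted p = 0.00279 and 9.71e-05). The median of all genes was then -0.14.

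Here too all 8 pan-germ genes were lower in Stra8KO, with a median of -0.98, and scaling to them moved the median of all genes by 0.96. With it, Pou5f1 (log2 0.89), Lin28a (0.94) and the other 5 factors named as higher were called higher in Stra8KO. Foxo1 turned to 0.07 (edgeR adjusted p = 0.157) and Taf4b was at -0.14 (edgeR adjusted p = 0.0342). These calls stand beside 16290 of the 20588 tested genes called higher and 650 lower with this scaling. The median of all genes was then 1.02, above the values of Pou5f1 and Lin28a and below those of the other 5. At a fold of at least 2, without that scaling, 3 of the 9 were called (Nanos2 and Pax7 higher, Taf4b lower), beside 18.5% of tested genes. All comparisons described so far draw on the same 8 libraries and are not independent of each other.

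**Figure D3:**
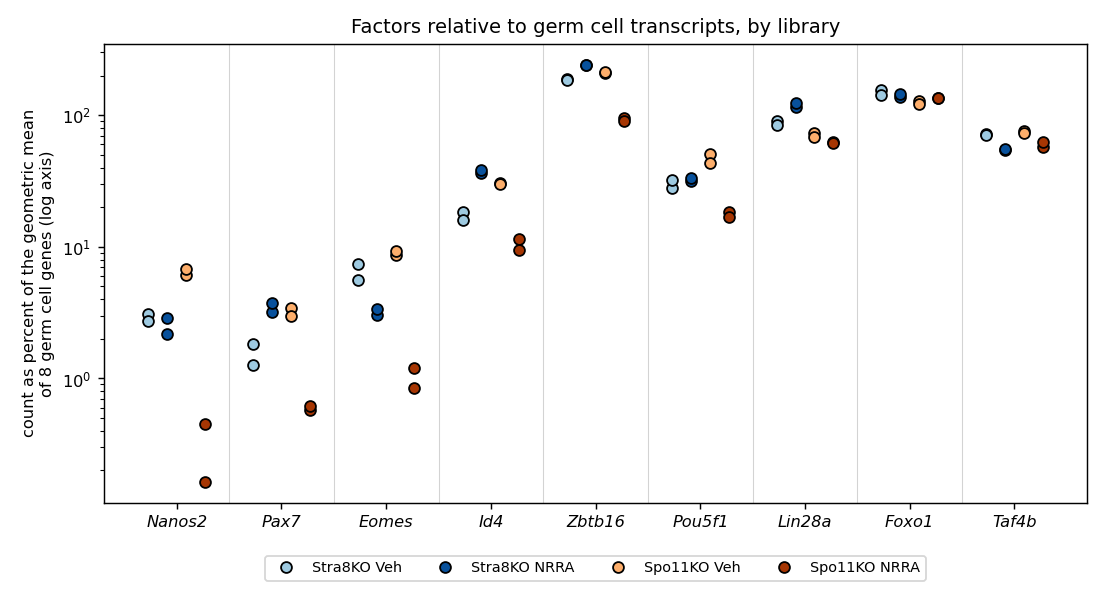
Count of each factor as a percent of the geometric mean count of 8 pan-germ genes in the same library, on a log axis, with 1 point a library. For Nanos2, Pax7, Eomes, Id4, Zbtb16, Pou5f1 and Lin28a the libraries labelled Spo11KO NRRA are the lowest of the 4 groups, while Foxo1 stays between 121 and 156 percent throughout.

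After NRRA the pan-germ genes themselves moved by a median of 0.14 in Stra8KO and 0.16 with the label Spo11KO. Of these 8 genes, 4 were called higher in Stra8KO, and 5 higher and 1 lower with the label Spo11KO. The shares over all tested genes were 41.9% and 49.9% called, so the reference genes were not constant under NRRA. On their scale the median response of the 9 factors was 0.12 in Stra8KO and -1.42 with the label Spo11KO, the call of Pou5f1 in Stra8KO was lost and Lin28a gained one with the label Spo11KO. As a percent of the pan-germ mean, Nanos2 went from 3.11 and 2.71 to 2.19 and 2.90 in Stra8KO and from 6.08 and 6.82 to 0.164 and 0.451 with the label Spo11KO. Id4 went from 18.5 and 16.1 to 36.6 and 38.7 in Stra8KO and from 30.5 and 30.0 to 9.54 and 11.5. The Stra8KO libraries after NRRA thus held more Id4 per germ cell transcript than those of any other group, and the same was seen for Zbtb16, at 242 percent in both against at most 215 elsewhere, and for Lin28a, at 115 and 123 against at most 89.8. Feeder genes moved with NRRA as well. Of the 16 fibroblast genes, 9 rose and 6 fell in Stra8KO and 10 rose and 6 fell with the label Spo11KO, and their summed level after NRRA was 40421 to 40964 CPM and 20591 to 21300 CPM. Among 6 Sertoli cell genes, 4 could be tested, and the summed level of all 6 was 15.5 to 47.1 CPM. With germ cell scaling, the NRRA changes of Pax7, Id4, Zbtb16 and Lin28a in Stra8KO were 1.14, 1.12, 0.37 and 0.46, all called higher. Nanos2, Pax7, Eomes, Id4, Zbtb16 and Pou5f1 were called lower with the label Spo11KO, at -4.33, -2.41, -3.11, -1.52, -1.19 and -1.42. Of the 20588 tested genes this scaling called 2596 higher and 8186 lower in Stra8KO, and 3318 higher and 7383 lower with the label Spo11KO.

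Per kilobase of exon, Zbtb16 was the most abundant of the 9 in each of the 4 groups and Pax7 the least. Zbtb16 was at 22.3 and 33.5 CPM per kb in Stra8KO before and after NRRA and at 51.7 and 25.1 with the label Spo11KO, and Pax7 at 0.168, 0.434, 0.700 and 0.145 in that order. Between them the order shifted with NRRA. In the cultures labelled Spo11KO, Pou5f1 was second in Veh at 27.0 ± 2.8 CPM per kb (SD, n = 2) and below Taf4b after NRRA at 11.2 ± 0.6, and Nanos2 stood above Eomes in Veh, at 5.30 ± 0.45 against 2.80 ± 0.14. Foxo1 and Lin28a did not differ beyond their spread after NRRA there, at 22.2 ± 0.1 and 22.1 ± 0.1 CPM per kb, nor did Taf4b and Foxo1 in Veh, at 18.6 ± 0.5 and 18.4 ± 0.6. Eomes and Nanos2 after NRRA there, at 0.353 ± 0.093 and 0.281 ± 0.189, also lay within their spread.

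The 16 other genes known from undifferentiated spermatogonia also split by genotype. After NRRA in Stra8KO 9 of the 16 rose and 4 fell, with a median log2 change of 0.65, and with the label Spo11KO 2 rose and 11 fell, with a median of -2.15, beside 41.9% and 49.9% of tested genes called. The largest rises in Stra8KO were those of Utf1, a chromatin factor of early spermatogonia (log2 2.60 ± 0.15 SE), and Neurog3, a bHLH factor of progenitors (2.15 ± 0.44). Their values with the label Spo11KO were -0.01 and -0.24 and did not pass the test. Lhx1 and Bcl6b, targets of GDNF signalling, fell most in Stra8KO, by log2 -1.50 ± 0.08 and -0.91 ± 0.05, and fell further with the label Spo11KO, by log2 -4.45 ± 0.08 and -2.77 ± 0.05. Plvap fell there by log2 -3.60 ± 0.11 and rose in Stra8KO by 0.64 ± 0.13. The rises with the label Spo11KO were those of Sox3, a factor of committed progenitors (1.83 ± 0.06, against 0.73 ± 0.08 in Stra8KO), and Sall4 (0.20 ± 0.04, against 1.05 ± 0.05). The response differed between genotypes for 15 of the 16, 14 of them higher in Stra8KO, with a median difference of 2.63, beside 25.1% of tested genes. In vehicle 15 of the 16 were lower in Stra8KO and none higher, and after NRRA 12 were higher and 3 lower, beside 62.3% and 64% of tested genes called. All 8 pan-germ genes were lower in Stra8KO in both of these comparisons, and their part in these counts was not tested.

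**Figure D4:**
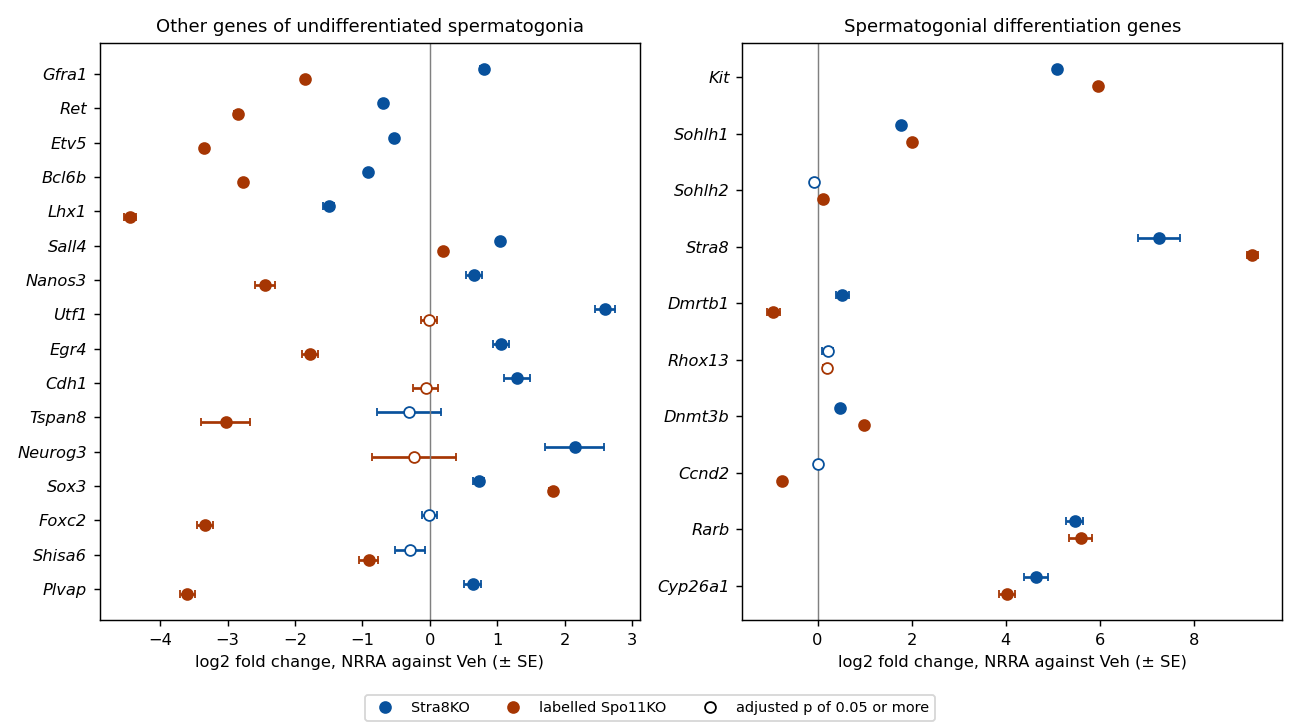
Fitted log2 fold change after NRRA against Veh with its standard error for 16 other genes of undifferentiated spermatogonia and 10 differentiation genes, by genotype label; open points did not pass an adjusted p of 0.05. The undifferentiated genes separate by genotype, whereas Kit and Rarb rise in both; the Stra8 point in Stra8KO rests on at most 2 counts in Veh and is no measure of size.

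Of the 10 differentiation genes 7 rose and none fell in Stra8KO, and 7 rose and 2 fell with the label Spo11KO, beside 21.6% and 24.5% of tested genes higher and 20.2% and 25.5% lower. The rises in Stra8KO include that of Stra8, the gene knocked out there, from 2 and 0 counts to 169 and 170. Kit, the receptor of differentiating spermatogonia, rose by log2 5.09 ± 0.07 SE in Stra8KO and by 5.96 ± 0.07 with the label Spo11KO, a difference of -0.87 ± 0.13. Rarb, a retinoic acid receptor, rose 44.1-fold in Stra8KO (log2 5.46 ± 0.19) and 48.4-fold with the label Spo11KO. After NRRA its mean level was 26.4 CPM in Stra8KO and 11.6 CPM with the label Spo11KO. Feeder fibroblasts shared the medium, and which cells gave the Rarb reads was not tested. Dmrtb1, a factor that controls the switch from mitosis to meiosis, rose by 0.53 ± 0.13 in Stra8KO and fell by 0.94 with the label Spo11KO. Ccnd2, a cyclin of differentiating spermatogonia, fell by 0.76 with the label Spo11KO and had a value of 0.01 in Stra8KO that did not pass the test, but with scaling to germ cell genes it was called lower there too, at -0.21 (edgeR adjusted p = 1.36e-05). Its mean level in Veh was 1236 CPM in Stra8KO and 1134 CPM with the label Spo11KO. Which cells gave the Ccnd2 reads was not tested.

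The closest relatives of the factors gave a mixed picture. Of 14 paralogs, 11 could be tested, with 4 higher and 2 lower in Stra8KO and 5 higher and 4 lower with the label Spo11KO, beside 41.9% and 49.9% of tested genes called. Nanos3 fell with Nanos2 in the cultures labelled Spo11KO (log2 -2.44 ± 0.15 SE) and rose in Stra8KO (0.66 ± 0.12), while Nanos1 rose with the label Spo11KO (0.76 ± 0.07) and had a value of 0.05 in Stra8KO that did not pass the test. Id3 changed in the direction of Id4 in both, by 0.29 ± 0.06 in Stra8KO and -0.32 ± 0.07 with the label Spo11KO. Lin28b, the paralog of Lin28a, had a value of -0.07 in Stra8KO that did not pass the test and rose by 0.23 ± 0.08 with the label Spo11KO. Foxo3 rose in both, by 0.43 ± 0.04 and 0.60 ± 0.04, as Foxo1 did. Taf4 fell by 0.34 in Stra8KO and had a value of -0.10 with the label Spo11KO that did not pass the test.

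Across the 8 libraries the pattern of each factor was matched most closely, by Pearson correlation of log2 CPM over 13043 candidate genes, by Adgrl3 for Nanos2 (r = 0.996), Hoxb3os for Pax7 (0.982), Mmp25 for Eomes (0.994), Msi2 for Id4 (0.987), Slc35f2 for Zbtb16 (0.995), Snx8 for Pou5f1 (0.994), Shroom3 for Lin28a (0.993), Slc35g1 for Foxo1 (0.999) and Ppp4r3a for Taf4b (0.999). These values describe 4 groups of 2 libraries that share genotype and medium. Among the factors themselves, Pax7 and Id4 were alike (r = 0.952), as were Nanos2 and Eomes (0.942), whereas Nanos2 and Lin28a were not (0.067).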

How the data were processed

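RNA was measured in 8 libraries of mouse spermatogonial cultures, 2 in each of 4 groups given by the labels. The authors deposited raw, whole-number read counts per Ensembl gene, not normalized and not pooled. The submitters' processing notes name bcl2fastq, STAR 2.6.1c, featureCounts 1.6.4 and mm10. The strand setting and the treatment of reads that fit several genes are not given in the sources used here. The study describes stranded libraries, while the labels name an unstranded kit, so overlapping and antisense genes are uncertain. The chi-square of counts between the libraries of each group had medians of 0.741 to 0.974 per gene, more than sampling noise gives. Each library was treated as a sample of its own, but this value cannot tell separate cultures from separate preparations of the same culture.

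Analysis of the deposited counts used edgeR 4.0.16 (R 4.3.3, limma 3.58.1). filterByExpr kept 20588 of 55421 genes, holding 99.88% of counts. TMM scaling was applied, and a single model with a mean for each group, fitted to all 8 libraries, was tested with robust quasi-likelihood F tests for 5 contrasts, two-sided, with Benjamini-Hochberg adjustment over all tested genes and calls at an adjusted p under 0.05. A standard error (SE) is the absolute log2 fold change over the square root of F. The biological coefficient of variation was 3.39%. CPM are counts scaled to a common library size after TMM. Intervals cover the spread between libraries, and depth limits Nanos2, Pax7 and Eomes most. The script was tested on simulated data. Replicate numbers did not pair libraries, since the correlations of deviations from group means were -0.03 to 0.06.

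The text names the 9 factors, Stra8 and Spo11, markers of other cell types, paralogs, genes from among the 2 largest rises and falls of each gene list in a comparison, and the gene most correlated with each factor. The factors, the lists and the tests were chosen with earlier results of these data known. Alternatives were DESeq2 size factors, total counts, scaling to pan-germ genes, no filter, a minimum average of 10 counts, the Wald test of DESeq2 1.42.0 (the study's tool), fits to only the 4 libraries compared, a replicate block, stricter thresholds and leaving out each library. Positions are from GENCODE M21 (GRCm38), matched by identifier for 99.52% of genes, and promoters from RefSeq.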

Additional observations from a re-analysis of the deposited data

Results flagged for a closer look

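The following genes stood out because their response to NRRA differed between the genotypes in edgeR's interaction test over all genes. Values are the log2 response in Stra8KO minus that in the cultures labelled Spo11KO. Among the factors the difference was 4.19 for Nanos2, 3.62 for Pax7, 2.70 for Id4, 2.16 for Eomes, 1.63 for Zbtb16, 1.60 for Pou5f1 and 0.71 for Lin28a. Of these 7, Pax7, Id4, Zbtb16 and Pou5f1 were called in opposite directions in the 2 genotypes, and Eomes was lower in both. For Nanos2 only the fall with the label Spo11KO was called, and for Lin28a only the rise in Stra8KO.

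Among other genes of undifferentiated spermatogonia the difference was 4.24 for Plvap, 3.10 for Nanos3, 2.95 for Lhx1, 2.61 for Utf1, 2.39 for Neurog3, 1.86 for Bcl6b, 0.85 for Sall4 and -1.10 for Sox3. Of the differentiation genes named in the text it was 1.47 for Dmrtb1, 0.77 for Ccnd2 and -0.87 for Kit. Of the paralogs it was 0.61 for Id3, -0.71 for Nanos1 and -0.17 for Foxo3. Groups of 2 libraries were too small for a check of single outlying libraries.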

How the results depend on the processing

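All the alternatives listed in the processing were run. The calls of Nanos2, Pax7, Eomes, Id4, Zbtb16, Pou5f1 and Lin28a for a difference in response held under each change of scaling, filter, test, block and left-out library. Total counts moved the median of all genes by 0.092, -0.11 and -0.21 in NRRA with the label Spo11KO and in the genotype comparisons in Veh and after NRRA, where calls were then 61.7%, 41.8% and 39.5% higher, and 38.7% higher for the difference in response, against 49.0%, 50.7%, 54.8% and 59.0%. Scaling to pan-germ genes gave 24.1%, 31.0%, 97.9%, 96.2% and 45.9% higher calls over the 5 comparisons. The sign of values near 0 changed for Nanos2 in Stra8KO, at -0.014 with size factors, -0.20 with pan-germ scaling, -0.0015 without a filter, -0.015 with DESeq2, and -0.17 to 0.17 when libraries were left out, for Ccnd2 there, at -0.020 with size factors, -0.21 with pan-germ scaling, -0.0081 without a filter, -0.023 with DESeq2 and -0.0061 to 0.017, and for Lin28a with the label Spo11KO, at 0.046 with total counts, 0.0022 without a filter and -0.11 to 0.0077 with libraries left out. Pan-germ scaling also turned Foxo1 (-0.073) and Nanos1 (-0.16) in Stra8KO, Lin28a (0.29) and Foxo1 (0.26) between genotypes in Veh, and Pou5f1 (0.89), Lin28a (0.94), Foxo1 (0.073) and Spo11 (0.30) after NRRA. Utf1 with the label Spo11KO was 0.079 with total counts, 0.037 without a filter and -0.15 to 0.10 with libraries left out, which also gave -0.72 to 0.46 for Neurog3 there, -0.15 to 0.00059 for Lin28b in Stra8KO, and differences in response of -0.28 to 0.044 for Rarb, -0.082 to 0.064 for Taf4b and -2.84 to 1.31 for Stra8. With a fold change of at least 2, genes called were 2168, 2539, 3336, 3819 and 1175 over the 5 comparisons, and factors called were 2 in Stra8KO and 3 after NRRA. DESeq2 called 3346 genes for the difference in response, against 5172. Factors called in Stra8KO were 5 to 8 with libraries left out, 5 without Veh replicate 2, which ended the calls of Eomes, Foxo1 and Taf4b. The replicate block, over numbers that share only a label, called 8 factors and 8542 genes in Stra8KO, 8 and 10215 with the label Spo11KO, and changed no call among the factors. The causes of these changes were not tested. The 6 and 19 reads of Nanos2 in the Spo11KO NRRA libraries limit the size of its fall.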

Other observations

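Sox2, a pluripotency factor and progenitor gene singled out after its values were seen, went from 85 and 97 counts in vehicle to 309 and 303 after NRRA in Stra8KO, and from 65 and 62 to 12 and 14 with the label Spo11KO. Its libraries did not overlap between any pair of groups, and its order of groups differed from that of Pou5f1.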
